A study of Mus musculus with 8 samples.

Results

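The genes described here are 44 synaptic adhesion and contactin genes, chosen by symbol from a count table of 27179 mouse genes. They fall into 13 families of neuronal cell-surface proteins, among them neurexins, neuroligins, LRRTMs, latrophilins, SLITRKs, contactins, the L1 family, nectins and SynCAMs. Counts and shares by family cover the members in this list only, and a family may hold other genes. All 44 were found and all 44 passed the filter on low counts, and the lowest count of any of them in any library was 60.

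Synaptic adhesion proteins span the cleft between the axon and the receiving cell and help to select partners and to specify what kind of synapse forms. Neurexins on the axon bind neuroligins and LRRTMs on the dendrite, latrophilins bind FLRTs and teneurins, and SLITRKs bind receptor tyrosine phosphatases of the LAR type. Contactins, L1-type proteins and NCAMs act earlier as well, in axon growth, bundling and neuronal migration, and nectins join neighbouring cells at adherens junctions. In embryonic cortex many such genes are expressed while neurons are still migrating and extending axons, before most synapses have formed.

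Polyadenylated RNA was sequenced with a stranded kit from the cerebral cortex of 4 Taf8-deleted embryos, labelled Taf8 -/lox, and 4 Taf8 wild-type embryos, labelled Taf8 +/+, with 1 embryo per library. The Taf8 protein belongs to TFIID, the general factor that binds core promoters and helps to place RNA polymerase II. The sources used here do not give the embryonic day, the Cre driver or whether the wild-type embryos carried Cre. The animal numbers in the labels share no first part between the groups, while 3 of the wild-type numbers share one, so a litter that it may mark cannot be told apart from the genotype. If it marks a litter, these 3 wild-type embryos are not independent, which the SD, SE and adjusted p do not take into account.

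Levels are given in CPM, counts scaled to a common library size, as mean ± SD of the 4 embryos of a group. All levels and changes are therefore relative to the other RNAs of a library. A change in the total RNA per cell would not show in them. The libraries held 26312505 to 65523487 counts in all, and a count of 3 is worth 0.0458 to 0.114 CPM in them, a limit that covers counting error only. Taf8 RNA, counted over the whole gene, had 0.643 ± 0.149 CPM in Taf8-deleted cortex and 34.8 ± 2.75 CPM in Taf8 wild-type cortex, a log2 fold change of -5.75 (SE 0.12, edgeR quasi-likelihood test, adjusted p = 1.45e-09). The Y-linked gene Ddx3y had 42.2 to 48.4 CPM in Taf8-deleted libraries and 41.4 to 53.8 CPM in Taf8 wild-type libraries, and Xist had 0.357 to 0.811 CPM in Taf8-deleted libraries and 0.0525 to 0.174 CPM in Taf8 wild-type libraries. All 8 libraries thus held Y-linked RNA and little Xist, as background to the 4 adhesion genes on chromosome X. Choroid plexus markers stood apart in deleted replicate 1, with a summed 1232 CPM, and in wild-type replicate 4, with 416 CPM, against 15.6 to 206 CPM in the other libraries. Wild-type replicate 3, the deepest library, held the highest wild-type value for 32 of the 44 adhesion genes.

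Of the 44 genes, 24 were lower in Taf8-deleted cortex, 6 were higher and 14 did not pass the threshold, an adjusted p of 0.05 in the edgeR quasi-likelihood test with Benjamini-Hochberg adjustment over 15649 genes. The lower genes include all 3 neuroligins, 4 of 5 SLITRKs, 3 of 4 LRRTMs and 3 of 4 L1-family genes, and the higher ones include both nectins, 2 of 4 SynCAMs, 1 neurexophilin and 1 latrophilin. The share lower was 54.5%, beside 29.6% of all genes tested, and the share higher was 13.6%, beside 29.5% of all genes. The share called in either direction was 68.2%, beside 59.2% of all genes. Members called lower thus exceeded their background share, and members called higher fell short of theirs. The median log2 fold change was -0.28 over the 44 genes and 0.01 over all genes tested, and 34 of the 44 had a negative fold change. For 28 of the 44 genes, 63.6%, the groups did not overlap, beside 53.6% of all genes. Without wild-type replicate 3 the counts were 6 higher and 24 lower, and without the 2 libraries high in choroid plexus markers they were 5 higher and 27 lower.

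**Figure D1:**
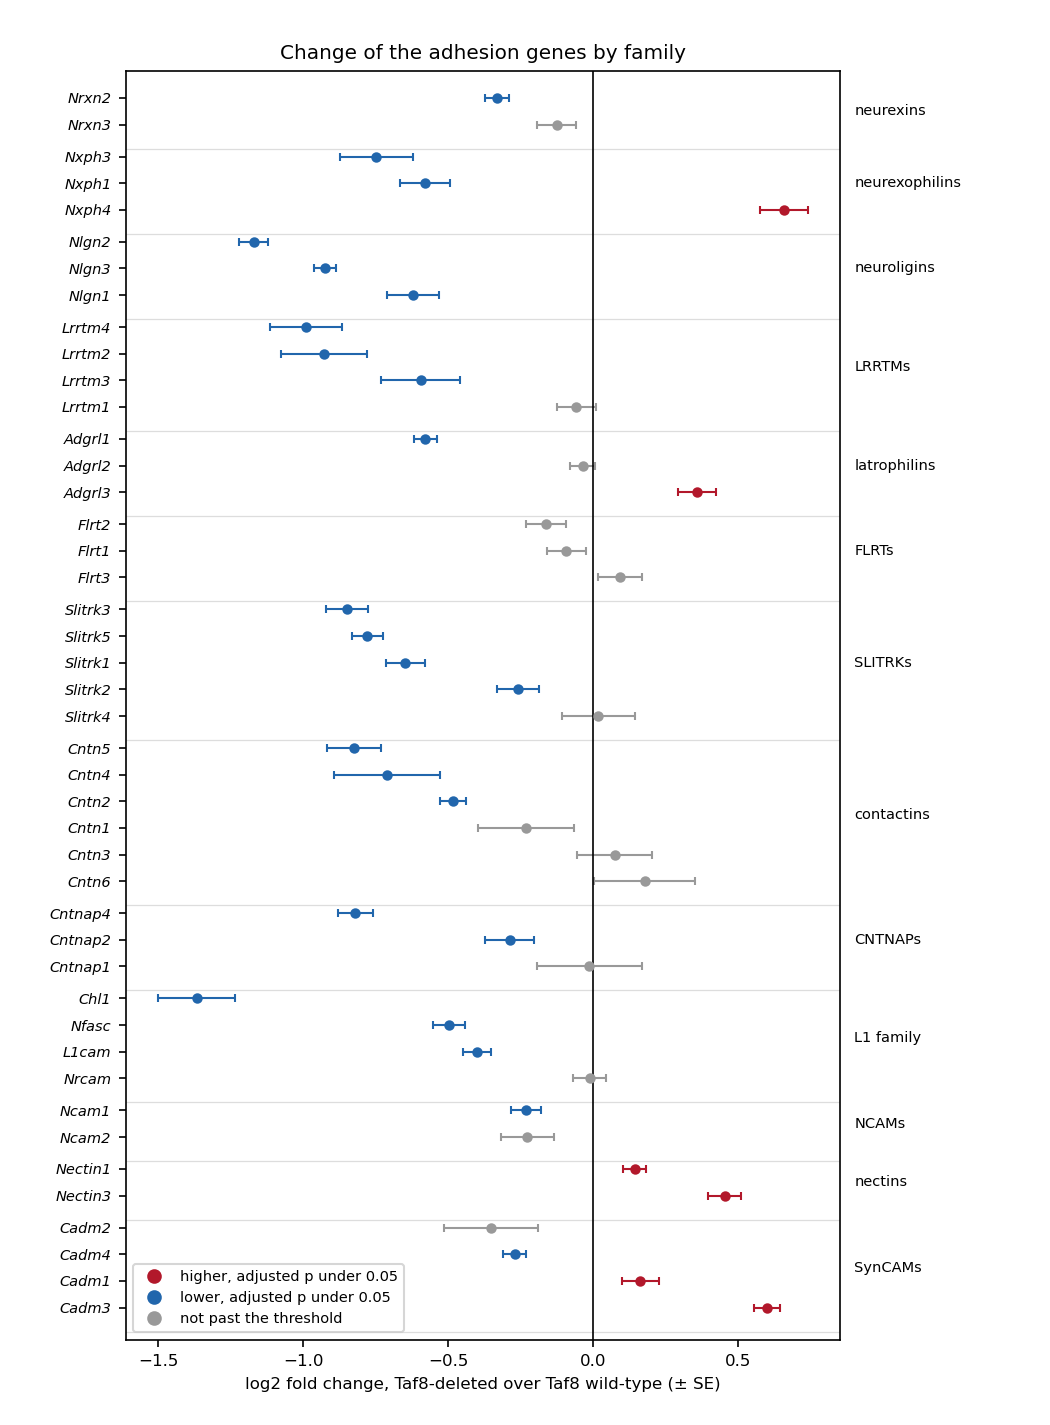
Log2 fold change, Taf8-deleted over Taf8 wild-type, of the 44 adhesion genes by family, with bars of 1 SE; blue points were lower, red points higher and grey points not past an adjusted p of 0.05. All 3 neuroligins lie left of -0.5 and both nectins lie right of 0, while neurexophilins, latrophilins and SynCAMs hold points on both sides.

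The sizes were moderate. Chl1 and Nlgn2 were lower by more than 2-fold, and 0 genes were higher by 2-fold. The lower genes fell by 0.23 to 1.37 on the log2 scale, and the higher genes rose by 0.14 to 0.66. Among called genes the median absolute log2 fold change was 0.60 for the adhesion genes and 0.42 for all genes. The 14 genes that did not pass the threshold had log2 fold changes of -0.35 to 0.18. Nearest to the threshold were Cadm1 inside it (adjusted p = 0.0476) and Ncam2 outside it (adjusted p = 0.0516), both by the edgeR test. Each library holds many cell types, so fewer cells of a type and less RNA per cell cannot be told apart in any of these values.

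TFIID acts at core promoters, so the promoters of the 2 lower and 2 higher genes with the largest change that the RefSeq promoter table of GRCm38.p6 holds are shown. Each runs from 250 bases before an annotated start to 50 after it, 5′ to 3′ on the gene's strand, and capitals mark GGGCGG, the letters bound by Sp1-type factors. Chl1 lies at chr6:103510626-103510925 on the plus strand, Nlgn2 at chr11:69837735-69838034, Cadm3 at chr1:173367646-173367945 and Nectin3 at chr16:46496918-46497217, these 3 on the minus strand. The windows of Chl1, Cadm3 and Nectin3 lie wholly inside the gene spans given below, so their starts are not the outermost ends.
Chl1: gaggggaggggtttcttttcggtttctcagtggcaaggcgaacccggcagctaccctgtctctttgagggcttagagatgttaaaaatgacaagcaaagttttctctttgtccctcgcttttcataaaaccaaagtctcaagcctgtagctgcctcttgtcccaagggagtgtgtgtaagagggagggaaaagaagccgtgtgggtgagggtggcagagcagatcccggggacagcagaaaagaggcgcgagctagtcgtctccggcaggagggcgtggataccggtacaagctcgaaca
Nlgn2: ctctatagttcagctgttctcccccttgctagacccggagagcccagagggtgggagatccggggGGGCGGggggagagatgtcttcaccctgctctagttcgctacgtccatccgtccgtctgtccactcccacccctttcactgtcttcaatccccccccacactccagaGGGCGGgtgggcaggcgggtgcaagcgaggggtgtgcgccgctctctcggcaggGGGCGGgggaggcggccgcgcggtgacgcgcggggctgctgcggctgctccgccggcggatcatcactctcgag
Cadm3: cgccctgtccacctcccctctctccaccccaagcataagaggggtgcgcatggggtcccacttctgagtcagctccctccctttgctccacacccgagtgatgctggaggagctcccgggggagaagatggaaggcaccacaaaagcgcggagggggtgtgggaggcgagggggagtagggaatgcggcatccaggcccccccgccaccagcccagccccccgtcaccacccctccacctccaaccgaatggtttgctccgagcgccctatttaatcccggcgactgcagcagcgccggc
Nectin3: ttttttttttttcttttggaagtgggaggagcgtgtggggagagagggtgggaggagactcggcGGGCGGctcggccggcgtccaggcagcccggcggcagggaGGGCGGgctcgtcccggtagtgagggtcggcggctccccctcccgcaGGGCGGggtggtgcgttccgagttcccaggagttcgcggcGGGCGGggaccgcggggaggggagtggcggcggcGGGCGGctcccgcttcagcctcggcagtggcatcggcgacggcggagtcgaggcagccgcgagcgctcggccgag
The promoter of Nlgn2, a lower gene, holds 3 copies of GGGCGG, beginning 185, 78 and 24 bases before the start, and the promoter of Nectin3, a higher gene, holds 5, beginning 186, 146, 99, 59 and 25 bases before it. Those of Chl1, a lower gene, and Cadm3, a higher gene, hold none of the 4 motifs searched on both strands, namely TATAAA of the TATA box, CCAAT of NF-Y sites, CACGTG of E-boxes and GGGCGG. GC content was 53.67% for Chl1, 68.67% for Nlgn2, 66.67% for Cadm3 and 73.67% for Nectin3. The table held 46 promoters of 32 adhesion genes and 15090 promoters of 11840 tested genes. Among them TATAAA stood in 4 adhesion promoters, 8.7%, beside 7.51% of all, and GGGCGG stood in 21, 45.7%, beside 61% of all. CCAAT stood in 13, 28.3%, beside 37.6% of all, and CACGTG in 2, 4.35%, beside 9.5% of all. Median GC content was 56.8% in the adhesion promoters and 60.7% in all. A match is a description of these letters only, no test was made of the shares, and genes with several promoters enter several times.

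Neuroligins are postsynaptic ligands of neurexins, and all 3 in the list were lower. Nlgn2, the neuroligin of inhibitory synapses, had 135, 140, 141 and 151 CPM in Taf8-deleted libraries and 335, 326, 302 and 313 CPM in Taf8 wild-type libraries. Nlgn3, found at excitatory and inhibitory synapses, had 40.2, 40.7, 39.6 and 40.9 CPM in Taf8-deleted libraries and 77.2, 79.5, 75.1 and 74.6 CPM in Taf8 wild-type libraries. In both genes the groups were far apart, and the 4 Taf8-deleted libraries lay close to each other. Nlgn2 fell by 1.17 on the log2 scale (SE 0.05), to 142 ± 7.0 CPM in Taf8-deleted cortex, against 319 ± 14.4 CPM in Taf8 wild-type cortex, a 2.25-fold difference (edgeR, adjusted p = 5.14e-08). Nlgn3 fell by 0.92 (SE 0.04, edgeR, adjusted p = 4.49e-08). Nlgn1, the neuroligin of excitatory synapses, had 21.3 ± 1.09 CPM in Taf8-deleted cortex and 32.7 ± 4.48 CPM in Taf8 wild-type cortex and fell by 0.62 (SE 0.09, edgeR, adjusted p = 0.000156). The wild-type spread of Nlgn1 came from replicate 3 at 39.4 CPM, and without it the log2 fold change was -0.52 (edgeR, adjusted p = 1.45e-05).

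The LRRTMs, leucine-rich repeat ligands of neurexins at excitatory synapses, were lower in 3 of 4 cases. Lrrtm4, which also binds heparan sulfate proteoglycans, had 5.33, 5.0, 4.71 and 5.59 CPM in Taf8-deleted libraries and 9.03, 9.07, 12.9 and 10.01 CPM in Taf8 wild-type libraries. Lrrtm2 had 11.9, 10.3, 11.2 and 14.3 CPM in Taf8-deleted libraries and 17.8, 22.9, 29.1 and 20.9 CPM in Taf8 wild-type libraries. Neither gene's groups overlapped, and wild-type replicate 3 was the highest library for both. Lrrtm4 fell by 0.99 on the log2 scale (SE 0.12, edgeR, adjusted p = 5.92e-05) and Lrrtm2 by 0.93 (SE 0.15, edgeR, adjusted p = 0.000324). Lrrtm3 had 8.38 ± 0.826 CPM in Taf8-deleted cortex and 12.6 ± 2.55 CPM in Taf8 wild-type cortex (log2 fold change -0.59, edgeR, adjusted p = 0.00327). Lrrtm1, the family member with the highest level per length, had 24.4 ± 0.941 CPM in Taf8-deleted cortex and 25.4 ± 2.20 CPM in Taf8 wild-type cortex and did not pass the threshold (edgeR, adjusted p = 0.476). Exons of Lrrtm2 share bases with Ctnna1 on the other strand, so its value is uncertain, since the strand setting of the counting is not stated.

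Of the 2 neurexins measured, the presynaptic receptors of these ligands, Nrxn2 fell by 0.33 on the log2 scale and Nrxn3 did not pass the threshold. Nrxn2 had 213 ± 9.63 CPM in Taf8-deleted cortex and 268 ± 2.45 CPM in Taf8 wild-type cortex (edgeR, adjusted p = 5.33e-05). Nrxn3 had 77.6 ± 6.47 CPM in Taf8-deleted cortex and 84.7 ± 6.19 CPM in Taf8 wild-type cortex (log2 fold change -0.13, edgeR, adjusted p = 0.132). These are counts per gene and do not separate the alpha and beta neurexins made from different promoters.

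Neurexophilins are secreted glycoproteins that bind alpha-neurexins, and the 3 members were called in opposite directions. Nxph4 had 47.9, 54.2, 56.1 and 58.9 CPM in Taf8-deleted libraries and 33.7, 38.1, 30.0 and 36.1 CPM in Taf8 wild-type libraries. Nxph3 had 12.9, 12.3, 12.9 and 12.8 CPM in Taf8-deleted libraries and 18.9, 17.3, 27.5 and 21.3 CPM in Taf8 wild-type libraries. Nxph4 was thus higher and Nxph3 lower in every Taf8-deleted library than in any Taf8 wild-type library. Nxph4, on chromosome 10 from 127525473 to 127534559 in GRCm38.p6, rose by 0.66 on the log2 scale (SE 0.08, edgeR, adjusted p = 5.82e-05), the highest fold change of the 44 genes. Nxph3 fell by 0.75 (SE 0.13, edgeR, adjusted p = 0.000483). Nxph1 had 13.1 ± 1.44 CPM in Taf8-deleted cortex and 19.5 ± 1.46 CPM in Taf8 wild-type cortex and fell by 0.58 (edgeR, adjusted p = 0.000212).

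Latrophilins, adhesion G protein-coupled receptors, also split. Adgrl3 had 113, 108, 98.2 and 107 CPM in Taf8-deleted libraries and 79.5, 79.2, 94.3 and 79.4 CPM in Taf8 wild-type libraries. The groups did not overlap, and wild-type replicate 3 came nearest to the Taf8-deleted values. Adgrl3 rose by 0.36 on the log2 scale (SE 0.07, edgeR, adjusted p = 0.000832), and by 0.43 without that library. Adgrl1 had 340 ± 14.0 CPM in Taf8-deleted cortex and 508 ± 10.4 CPM in Taf8 wild-type cortex and fell by 0.58 (SE 0.04, edgeR, adjusted p = 9.2e-07). Adgrl2 had 239 ± 7.31 CPM in Taf8-deleted cortex and 245 ± 10.9 CPM in Taf8 wild-type cortex (edgeR, adjusted p = 0.503). Of the FLRTs, ligands of latrophilins and of UNC5 receptors, 0 of 3 passed the threshold, with log2 fold changes of -0.16 for Flrt2, -0.09 for Flrt1 and 0.09 for Flrt3 and edgeR adjusted p values of 0.0624, 0.268 and 0.317. Flrt2 lay near the threshold and passed it as lower in 4 of the 20 alternative fits, DESeq2 among them (adjusted p = 0.0415).

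SLITRKs are leucine-rich repeat proteins that bind LAR-type phosphatases on the axon, and 4 of 5 were lower. Slitrk3, which promotes inhibitory synapses, had 17.0, 15.8, 14.1 and 15.6 CPM in Taf8-deleted libraries and 26.7, 26.8, 31.2 and 27.6 CPM in Taf8 wild-type libraries. Slitrk5 had 22.3, 24.4, 24.9 and 26.3 CPM in Taf8-deleted libraries and 42.3, 41.7, 42.9 and 41.0 CPM in Taf8 wild-type libraries. For both genes every Taf8-deleted library lay below every Taf8 wild-type library. Slitrk3 fell by 0.85 on the log2 scale (SE 0.07, edgeR, adjusted p = 4.07e-06) and Slitrk5 by 0.78 (SE 0.05, edgeR, adjusted p = 9.35e-07). Slitrk1 fell by 0.65, to 29.9 ± 2.97 CPM in Taf8-deleted cortex, against 47.0 ± 1.77 CPM in Taf8 wild-type cortex (edgeR, adjusted p = 1.57e-05). Slitrk2 fell by 0.26 (edgeR, adjusted p = 0.0108), and Slitrk4 had 6.95 ± 0.455 CPM in Taf8-deleted cortex and 6.84 ± 1.26 CPM in Taf8 wild-type cortex (edgeR, adjusted p = 0.911). Slitrk2 and Slitrk4 are both on chromosome X.

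**Figure D2:**
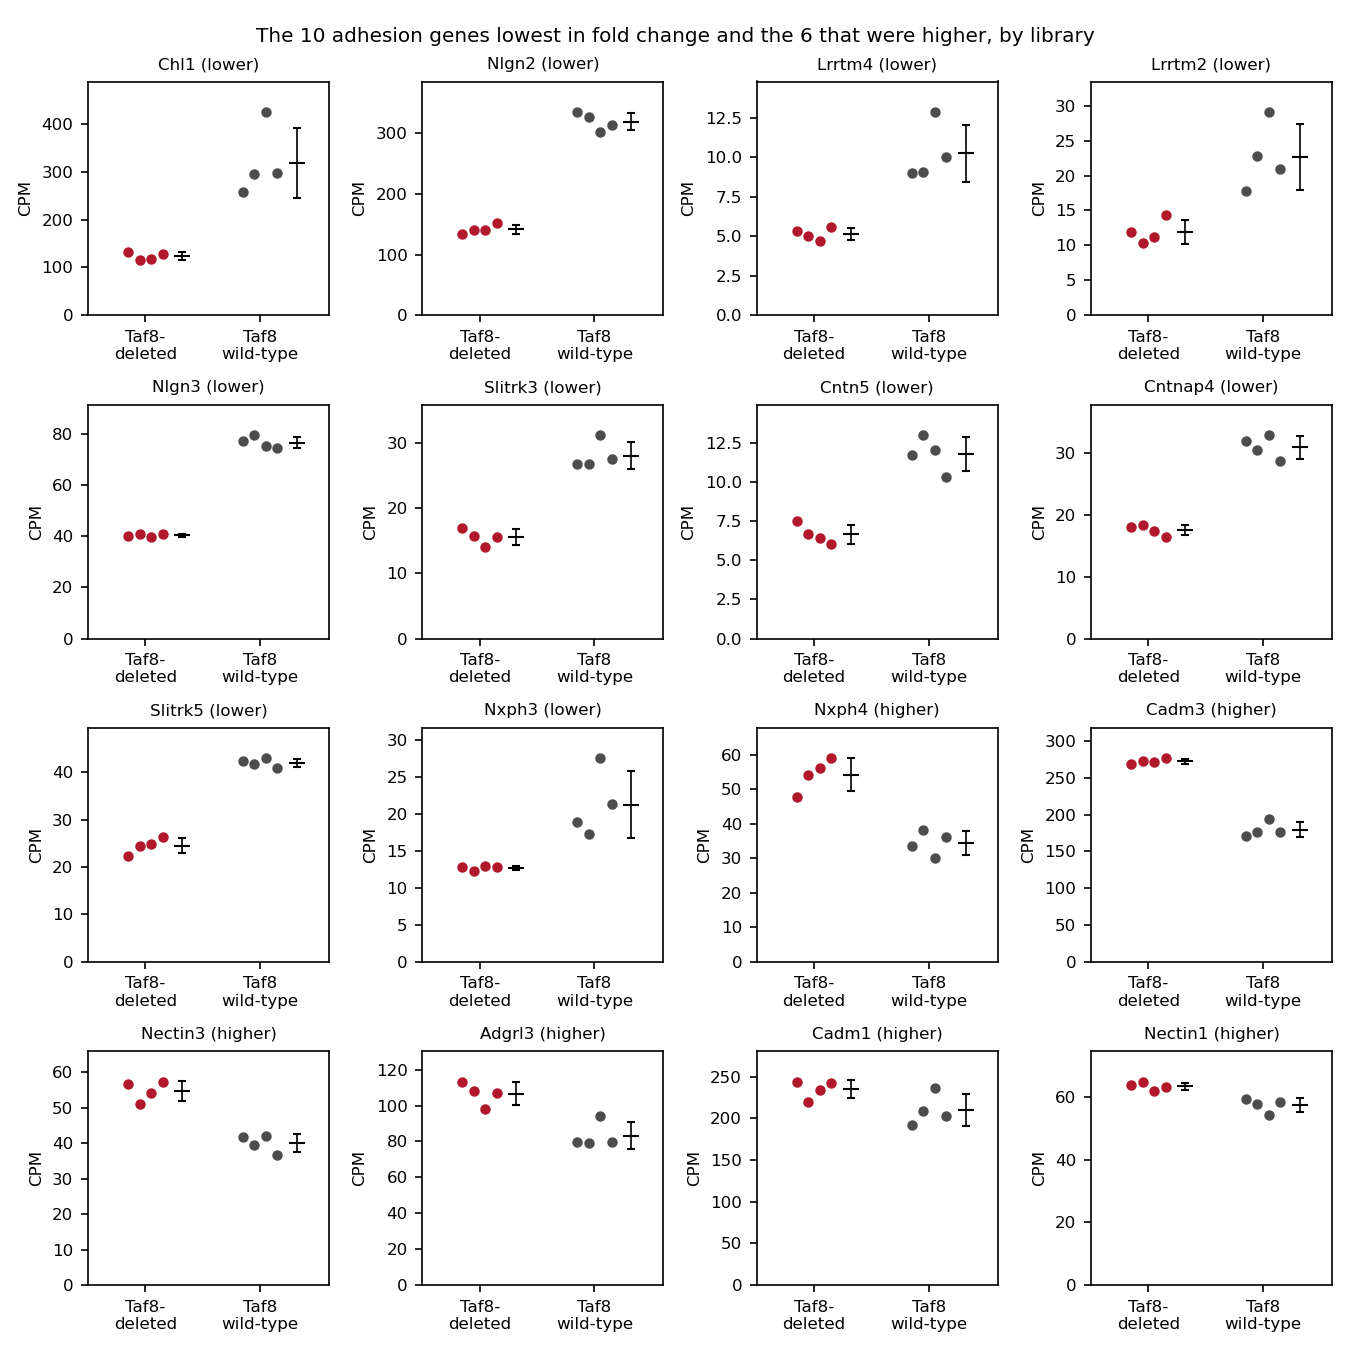
CPM in each library for the 10 lower adhesion genes with the largest fold change and the 6 higher ones, Taf8-deleted in red left of Taf8 wild-type in grey, with mean ± SD (n = 4) beside the points; axes start at 0. The groups are apart in all panels except Cadm1, and wild-type replicate 3 is the highest grey point for Chl1, Lrrtm4, Lrrtm2, Slitrk3 and Nxph3, among others.

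The L1 family holds the gene with the lowest fold change. Chl1, the close homologue of L1 that guides neurite growth and neuronal positioning, had 133, 115, 119 and 129 CPM in Taf8-deleted libraries. In Taf8 wild-type libraries it had 258, 296, 425 and 299 CPM. The groups were far apart, with the Taf8-deleted libraries close together and wild-type replicate 3 well above the other wild-type libraries. Chl1 (chromosome 6, 103510584 to 103733038, GRCm38.p6) fell by 1.37 on the log2 scale (SE 0.13), a 2.58-fold difference (edgeR, adjusted p = 1e-05), and by 1.197 without that library. L1cam, the founding member, which promotes axon growth and bundling, had 260, 268, 273 and 296 CPM in Taf8-deleted libraries and 361, 355, 383 and 350 CPM in Taf8 wild-type libraries. It fell by 0.40 (SE 0.05, edgeR, adjusted p = 4.69e-05), with groups that did not overlap. Nfasc, which anchors the axon initial segment, had 203 ± 14.0 CPM in Taf8-deleted cortex and 286 ± 11.4 CPM in Taf8 wild-type cortex and fell by 0.50 (edgeR, adjusted p = 2.35e-05). Nrcam, which shares ankyrin binding with Nfasc, had 196 ± 9.43 CPM in Taf8-deleted cortex and 197 ± 14.6 CPM in Taf8 wild-type cortex (edgeR, adjusted p = 0.874). L1cam shares exon bases with Arhgap4 on its own strand, so reads there could have been assigned to either gene.

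Contactins are immunoglobulin proteins held to the membrane by a lipid anchor, and 3 of 6 were lower while 3 did not pass the threshold. Cntn2, known as TAG-1 and carried on growing axons, had the highest CPM of the 44 genes, with 631, 569, 592 and 576 CPM in Taf8-deleted libraries and 842, 787, 864 and 815 CPM in Taf8 wild-type libraries. Cntn5 had 7.49, 6.69, 6.43 and 6.08 CPM in Taf8-deleted libraries and 11.7, 13.0, 12.1 and 10.4 CPM in Taf8 wild-type libraries. Neither gene's groups overlapped. Cntn2 fell by 0.48 on the log2 scale (SE 0.04, edgeR, adjusted p = 6.35e-06) and Cntn5 by 0.82 (SE 0.09, edgeR, adjusted p = 3.09e-05). Cntn4 had 2.94 ± 0.695 CPM in Taf8-deleted cortex and 4.84 ± 0.860 CPM in Taf8 wild-type cortex and fell by 0.71 (SE 0.18, edgeR, adjusted p = 0.0065). Cntn1, Cntn3 and Cntn6 had log2 fold changes of -0.23, 0.07 and 0.18, with edgeR adjusted p values of 0.253, 0.644 and 0.399.

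CNTNAPs are neurexin-like transmembrane partners of contactins, and 2 of 3 were lower. Cntnap4 had 18.1, 18.4, 17.4 and 16.5 CPM in Taf8-deleted libraries and 31.9, 30.4, 32.9 and 28.6 CPM in Taf8 wild-type libraries, with no overlap. It fell by 0.82 on the log2 scale (SE 0.06, edgeR, adjusted p = 1.39e-06). Cntnap2, the partner of Cntn2 on myelinated axons, had 107 ± 14.6 CPM in Taf8-deleted cortex and 131 ± 7.5 CPM in Taf8 wild-type cortex and fell by 0.29 (SE 0.08, edgeR, adjusted p = 0.0131). Its groups overlapped through deleted replicate 4 at 129 CPM, and without that library it fell by 0.41 (edgeR, adjusted p = 0.000148). Cntnap1, the partner of Cntn1 at paranodes, had 3.21 ± 0.537 CPM in Taf8-deleted cortex and 3.27 ± 0.695 CPM in Taf8 wild-type cortex (edgeR, adjusted p = 0.958). Cntn2 and Cntnap2 were thus both called lower, while neither Cntn1 nor Cntnap1 passed the threshold. The fold change of Cntn1, -0.23 (SE 0.17), lay near that of Cntnap2, and a difference between the pairs was not tested. Of the NCAMs, homophilic adhesion proteins, Ncam1 had 332 ± 13.5 CPM in Taf8-deleted cortex and 389 ± 25.9 CPM in Taf8 wild-type cortex and fell by 0.23 (edgeR, adjusted p = 0.0032). Ncam2 had the same fold change to 2 decimals, -0.23, with an edgeR adjusted p of 0.0516, and it passed the threshold as lower in 6 of the 20 alternative fits.

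Nectins bind each other across cell borders at adherens junctions, and both nectins in the list were higher. Nectin3 had 56.6, 51.1, 54.0 and 57.3 CPM in Taf8-deleted libraries and 41.6, 39.6, 42.1 and 36.7 CPM in Taf8 wild-type libraries. Nectin1, its preferred partner, had 63.7, 64.8, 62.0 and 63.1 CPM in Taf8-deleted libraries and 59.4, 57.8, 54.1 and 58.4 CPM in Taf8 wild-type libraries. The groups were separate for both genes, widely for Nectin3 and narrowly for Nectin1. Nectin3 (chromosome 16, 46387665 to 46498535, GRCm38.p6) rose by 0.45 on the log2 scale (SE 0.06, edgeR, adjusted p = 5.44e-05) and Nectin1 by 0.14 (SE 0.04, edgeR, adjusted p = 0.0106). Nectin1 did not pass a test against a 1.2-fold change.

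SynCAMs are nectin-like immunoglobulin proteins that bind each other at synapses and between axons and glia, and 2 of 4 were higher and 1 was lower. Cadm3, a neuronal member, had 268, 273, 271 and 276 CPM in Taf8-deleted libraries and 171, 176, 194 and 177 CPM in Taf8 wild-type libraries. Cadm1 had 244, 220, 233 and 243 CPM in Taf8-deleted libraries and 191, 209, 236 and 203 CPM in Taf8 wild-type libraries. The groups were far apart for Cadm3 and overlapped for Cadm1, through wild-type replicate 3. Cadm3 (chromosome 1, 173331892 to 173368139, GRCm38.p6) rose by 0.60 on the log2 scale (SE 0.04, edgeR, adjusted p = 1.64e-06). Cadm1 rose by 0.16 (SE 0.06, edgeR, adjusted p = 0.0476), a call that was lost when any 1 library other than wild-type replicate 3 was left out. Cadm4, a partner of Cadm3 in axon and glia contact, had 224, 238, 239 and 246 CPM in Taf8-deleted libraries and 293, 287, 281 and 283 CPM in Taf8 wild-type libraries. It fell by 0.27 (SE 0.04, edgeR, adjusted p = 0.000189), with groups that did not overlap. Cadm2 had 30.9 ± 4.26 CPM in Taf8-deleted cortex and 39.4 ± 10.4 CPM in Taf8 wild-type cortex (edgeR, adjusted p = 0.0859). Cadm3 shares exon bases with Ackr1 on its own strand.

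Levels can be compared between genes only per length, here as CPM per kilobase of the counted length. On that scale the genes spanned a 201-fold range over all libraries. Cadm4 was the highest in both groups, at 110 CPM per kilobase in Taf8-deleted cortex and 133 in Taf8 wild-type cortex. Cntn2, second over all libraries, had 62.1 CPM per kilobase in Taf8-deleted cortex and 86.8 in Taf8 wild-type cortex. L1cam had 51.9 CPM per kilobase in Taf8-deleted cortex and 68.5 in Taf8 wild-type cortex, and Cadm3 had 65.4 in Taf8-deleted cortex and 43.1 in Taf8 wild-type cortex. The order of these levels thus differed between the groups, with Cadm3 above Cntn2 and L1cam in Taf8-deleted cortex and below both in Taf8 wild-type cortex. Cntnap1, a gene of myelinated axons, was the lowest over all libraries, at 0.598 CPM per kilobase in Taf8-deleted cortex and 0.610 in Taf8 wild-type cortex. In Taf8-deleted cortex alone Cntn4 was lower still, at 0.489 CPM per kilobase there and 0.804 in Taf8 wild-type cortex. Both the highly and the lowly expressed genes included lower ones. The correlation of log10 level per kilobase with log2 fold change across the 44 genes was 0.09 (Pearson) and 0.11 (Spearman). It is a description across genes of the same libraries.

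**Figure D3:**
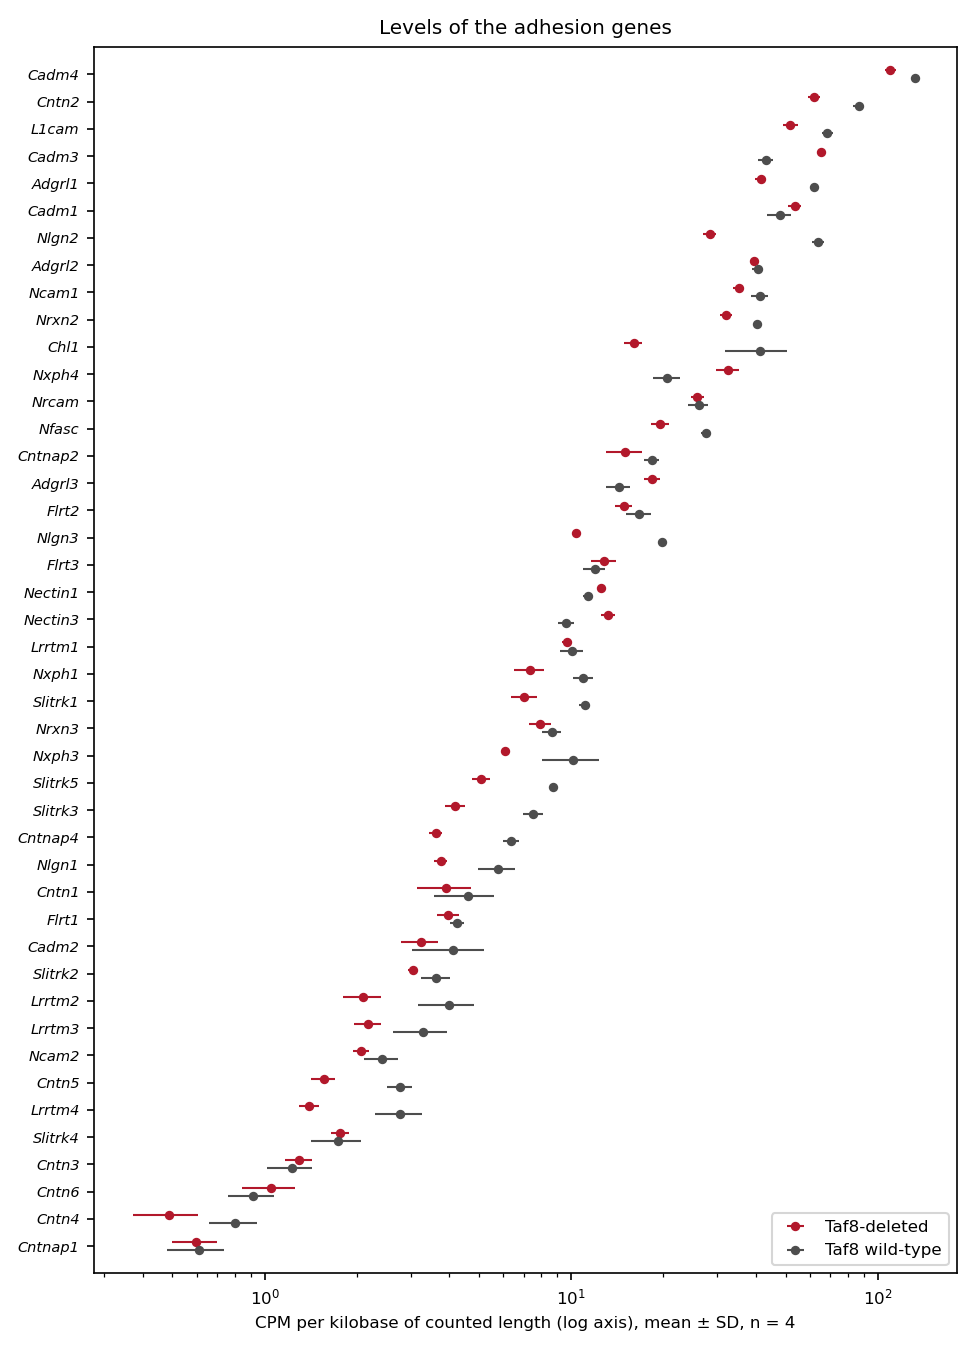
Level of the 44 adhesion genes in CPM per kilobase of counted length on a log axis, mean ± SD (n = 4), Taf8-deleted in red above Taf8 wild-type in grey, ordered by the mean over all libraries. Cadm4 is at the top and Cntnap1 at the bottom, and the 2 groups are furthest apart for Chl1 and Nlgn2.

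Because members of a family were called in different directions or by different amounts, the make-up of a family's summed level per length differed between the groups. These shares cover the listed members of a family only. They are descriptions with no test, and they follow from the changes above. Nxph4 made up 66.3, 72.2, 71.0 and 73.1% of neurexophilin RNA in Taf8-deleted libraries and 50.3, 54.6, 41.6 and 51.4% in Taf8 wild-type libraries. Lrrtm1 made up 63.1 ± 1.31% of LRRTM RNA in Taf8-deleted cortex and 50.3 ± 3.02% in Taf8 wild-type cortex. In the L1 family, Chl1 made up 14.1 ± 0.709% in Taf8-deleted cortex and 25.0 ± 3.42% in Taf8 wild-type cortex, and Nrcam 22.8 ± 0.523% in Taf8-deleted cortex and 16.0 ± 0.407% in Taf8 wild-type cortex. The order of these 2 genes was therefore turned round between the groups. Among latrophilins, Adgrl1 made up 41.8 ± 0.518% in Taf8-deleted cortex and 53.1 ± 1.06% in Taf8 wild-type cortex, and Adgrl3 18.4 ± 0.834% in Taf8-deleted cortex and 12.2 ± 0.900% in Taf8 wild-type cortex. Among SynCAMs, Cadm3 made up 28.2 ± 0.397% in Taf8-deleted cortex and 18.9 ± 0.584% in Taf8 wild-type cortex. The neuroligins, which were all lower, had a make-up that moved less, with Nlgn2 at 66.7 ± 1.04% in Taf8-deleted cortex and 71.4 ± 1.27% in Taf8 wild-type cortex. Cntn2 held 88.2 ± 0.432% of contactin RNA in Taf8-deleted cortex and 89.4 ± 1.18% in Taf8 wild-type cortex.

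**Figure D4:**
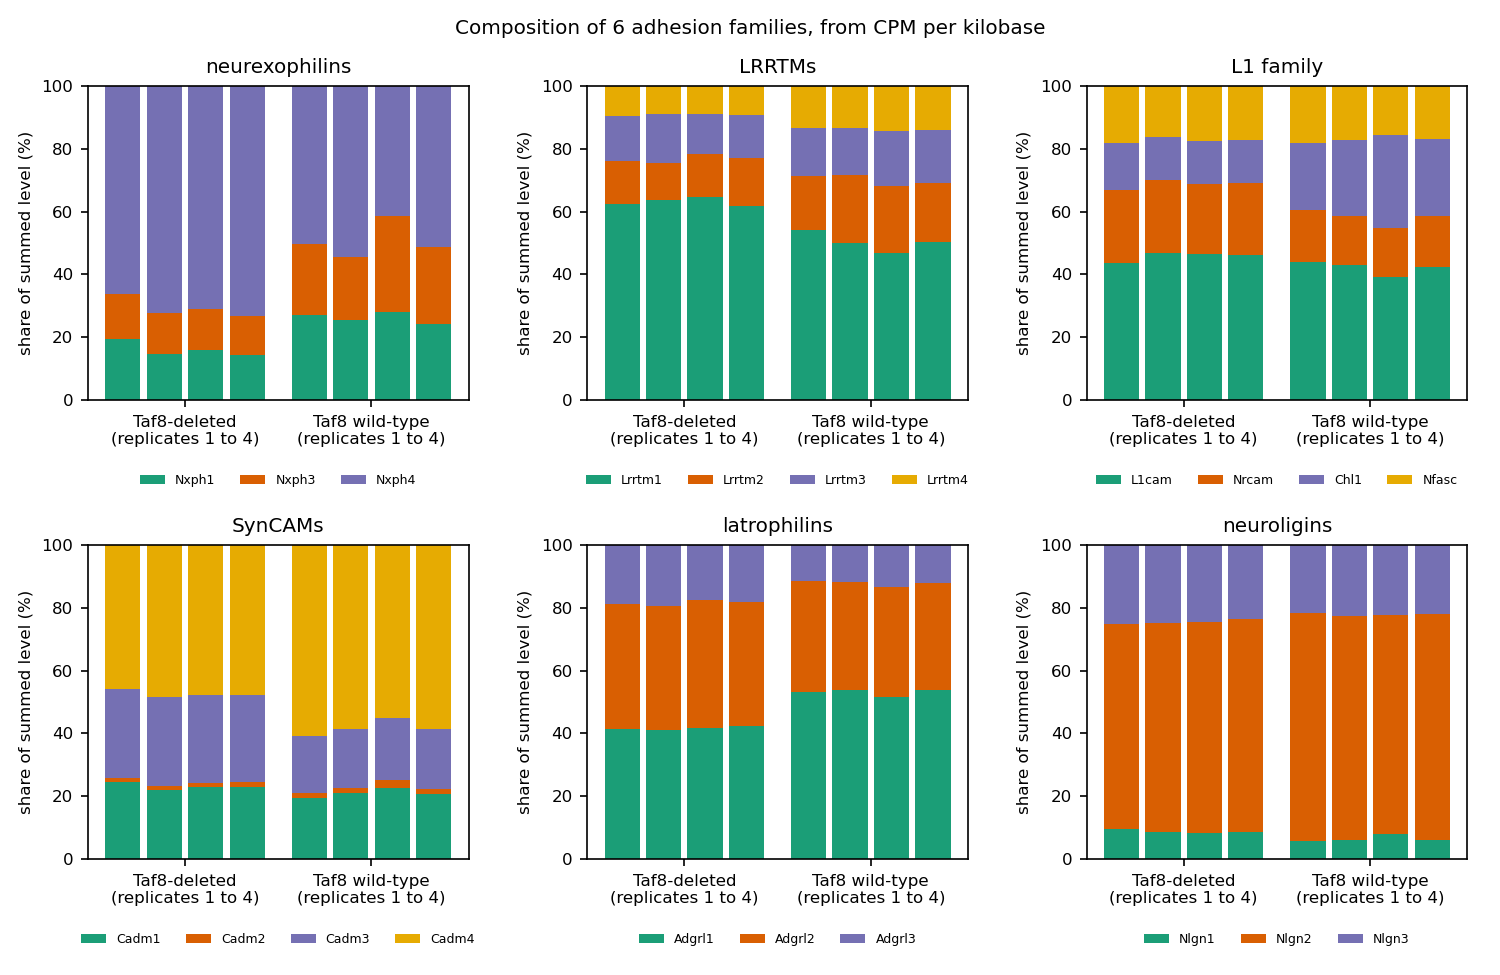
Share of each gene in its family's summed CPM per kilobase, in percent, for 6 families, 1 stacked bar per library, Taf8-deleted replicates 1 to 4 left of Taf8 wild-type replicates 1 to 4. Nxph4 and Lrrtm1 take larger shares and Chl1 a smaller one in each of the 4 Taf8-deleted libraries, while Nlgn2 keeps the largest neuroligin share in all 8.

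Other genes of the same pathways were read from lists of binding partners and of intracellular scaffolds. Of 34 trans-synaptic partners and ligands, 22 fell, 2 rose and 10 did not pass the threshold, with a median log2 fold change of -0.27. Among all genes tested, 29.6% were lower and 29.5% higher. Tenm2, a teneurin that binds latrophilins, had 57.3 ± 3.48 CPM in Taf8-deleted cortex and 95.3 ± 7.59 CPM in Taf8 wild-type cortex and fell by 0.74 (edgeR, adjusted p = 4.49e-06). Lrfn2, a leucine-rich repeat protein that binds PSD-95, fell by 0.87 (edgeR, adjusted p = 7.56e-06), to 6.30 ± 0.592 CPM in Taf8-deleted cortex, against 11.5 ± 0.484 CPM in Taf8 wild-type cortex. Unc5d, a netrin receptor that binds Flrt2, had 41.8 ± 2.84 CPM in Taf8-deleted cortex and 76.3 ± 10.8 CPM in Taf8 wild-type cortex and fell by 0.87 (edgeR, adjusted p = 1.7e-05). The 2 higher partners were Cbln1 and Gpc4. Cbln1, a secreted bridge between neurexins and glutamate delta receptors, had 34.4 ± 1.53 CPM in Taf8-deleted cortex and 23.9 ± 2.96 CPM in Taf8 wild-type cortex and rose by 0.52 (edgeR, adjusted p = 0.000315). Gpc4, a glypican that binds Lrrtm4, rose by 0.17 (edgeR, adjusted p = 0.0248) with overlapping groups.

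Of 30 genes listed as intracellular scaffolds of adhesion receptors, 19 fell, 1 rose and 10 did not pass the threshold, with a median log2 fold change of -0.30. Beside them stand the same shares of all genes tested, 29.6% lower and 29.5% higher. Epb41l3, a band 4.1 protein that binds SynCAMs and CNTNAPs, had 56.1 ± 2.15 CPM in Taf8-deleted cortex and 84.2 ± 1.69 CPM in Taf8 wild-type cortex and fell by 0.59 (edgeR, adjusted p = 8.2e-07). Dlg4, which encodes PSD-95 and binds neuroligins, had 206 ± 9.02 CPM in Taf8-deleted cortex and 294 ± 4.91 CPM in Taf8 wild-type cortex and fell by 0.52 (edgeR, adjusted p = 2.52e-06). Dlg3, its relative SAP102, fell by 0.55 (edgeR, adjusted p = 4.99e-06). The higher scaffold was Epb41l5, a band 4.1 protein of epithelial polarity, with 66.6 ± 1.86 CPM in Taf8-deleted cortex and 57.7 ± 2.55 CPM in Taf8 wild-type cortex (log2 fold change 0.21, edgeR, adjusted p = 0.00201).

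Marker genes of the cell types present moved in the same comparison. Their counts stand beside 29.6% lower and 29.5% higher among all genes tested. Of 20 pan-neuronal markers, 17 were lower and 1 was higher, with a median log2 fold change of -0.41. Their summed level was 7262 to 8059 CPM in Taf8-deleted libraries and 9161 to 10814 CPM in Taf8 wild-type libraries. The fall was uneven across these markers. Neurod6, Neurod2 and Dcx fell by 1.36, 0.83 and 0.71 on the log2 scale. Tubb3 (-0.04, edgeR, adjusted p = 0.328) and Elavl3 (-0.0025, edgeR, adjusted p = 0.96) did not pass the threshold, and the higher marker was Nefm (0.66). Interneuron markers were lower for 11 of 15 and higher for 3, at a summed 1086 to 1115 CPM in Taf8-deleted libraries and 1276 to 1450 CPM in Taf8 wild-type libraries. Radial glia markers were higher for 7 of 14 and lower for 5, and summed to 4070 to 4405 CPM in Taf8-deleted libraries and 3394 to 3682 CPM in Taf8 wild-type libraries. The neuronal sums were thus lower, and the radial glia sum higher, in every Taf8-deleted library than in any Taf8 wild-type library. Vim and Nes, the radial glia markers with the highest levels, weighed most in that sum. Vim had 1226 ± 92.3 CPM in Taf8-deleted cortex and 809 ± 65.8 CPM in Taf8 wild-type cortex. Nes had 979 ± 34.9 CPM in Taf8-deleted cortex and 515 ± 42.2 CPM in Taf8 wild-type cortex. The 5 lower markers, Fabp7, Ptprz1, Tnc, Slc1a3 and Ddah1, went the other way. All 13 endothelial and pericyte markers were higher, with sums of 292 to 368 CPM in Taf8-deleted libraries and 241 to 254 CPM in Taf8 wild-type libraries. Meningeal markers were higher for 7 of 10 and lower for 0, with sums of 84.9 to 222 CPM in Taf8-deleted libraries and 49.8 to 89.7 CPM in Taf8 wild-type libraries. Markers of microglia were higher for 5 of 10 and lower for 1, those of red blood cells were higher for 5 of 8 tested and lower for 0, and those of the choroid plexus were higher for 1 of 8 and lower for 0. Markers of oligodendrocyte precursors and astrocytes were lower for 5 of 8 tested and higher for 0, at a summed 71.8 to 81.6 CPM in Taf8-deleted libraries and 99.3 to 109 CPM in Taf8 wild-type libraries. No gene of these 9 lists was at 0 in all libraries. The part of these cell types in the adhesion gene values was not tested. The median of the adhesion genes, -0.28, lay between that of the pan-neuronal markers and that of all genes.

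**Figure D5:**
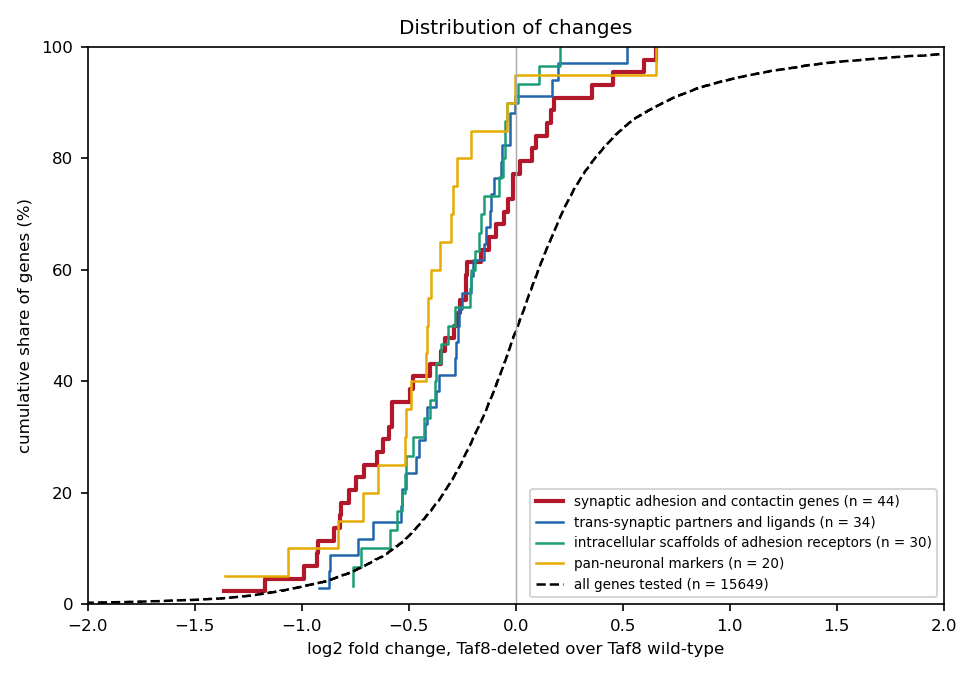
Cumulative share of genes, in percent, against log2 fold change, Taf8-deleted over Taf8 wild-type, for the 44 adhesion genes (red), 34 partners (blue), 30 scaffolds (green), 20 pan-neuronal markers (yellow) and all 15649 genes tested (dashed), drawn from -2 to 2 with 234 genes outside. The adhesion, partner and scaffold curves lie left of the dashed curve over most of the range, and around its middle the pan-neuronal curve lies furthest left.

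Many adhesion genes are long, and the members had a median genomic span of 113 kb, beside 23.1 kb for the 15227 tested genes with a span in the RefSeq table. Of the 8 genes over 500 kb, 5 fell, 1 rose and 2 did not pass the threshold, with a median log2 fold change of -0.49. Of all 217 tested genes of that span, 47% were lower and 10.1% higher. Of the 18 genes of 50 to 500 kb, 7 fell, 3 rose and 8 did not pass, with a median of -0.19, beside 36% lower and 22.4% higher among 4141 tested genes. Of the 18 genes under 50 kb, 12 fell, 2 rose and 4 did not pass, with a median of -0.44, beside 27.4% lower and 32.2% higher among 10869 tested genes. The differences between these classes were not tested. The correlation of log10 span with log2 fold change across the 44 genes was 0.05 (Pearson) and 0.08 (Spearman), given as a description. On chromosome X, 3 of 4 genes were lower, namely Nlgn3, L1cam and Slitrk2, beside 29.6% of all genes tested. In the GENCODE M21 annotation 16 of the 44 genes share exon bases with another gene, 3 on the same strand and 13 on the opposite strand, and their values are uncertain to that extent.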

How the data were processed

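RNA was measured in the cerebral cortex of 4 Taf8-deleted and 4 Taf8 wild-type mouse embryos, grouped by the labels. The authors deposited whole-number read counts for each Entrez gene, not normalized. Subread 1.5.0, featureCounts and mm10 are named in the submitters' processing notes. The sources used here do not give the annotation, the strand setting or the treatment of multi-mapping reads. The matrix of 27179 genes and the single-sample files differed in 0 values. Symbols and coordinates came from RefSeq GRCm38.p6 for 25275 genes, and 1904 had no symbol.

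The groups were compared by edgeR's quasi-likelihood F-test (edgeR 4.0.16, R 4.3.3) after TMM scaling and filterByExpr, and p-values were adjusted by Benjamini-Hochberg over 15649 genes, at a threshold of 0.05. The SE is the log2 fold change over the square root of F. CPM values use TMM-scaled library sizes. Totals were 26312505 to 65523487 counts. The steps were tested on simulated data with 200 changed genes. That is far fewer than the 9257 genes called here, so the steps were not tested under so wide a change.

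The 44 genes and the lists of partners, scaffolds and markers were chosen with earlier results of these data known, and no list was tested as a set. Values in every library are given for the 10 lower and 6 higher called genes with the largest change and for the 4 with the highest level per length. Up to 3 lower and 3 higher genes per list are named by smallest adjusted p. Promoters are those of RefSeq, matched by Entrez gene number for 32 of 44 genes.

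Alternatives were other scalings and filters, DESeq2 1.42.0, limma 3.58.1 voom, a replicate block, each library left out, the single-sample files, a threshold of 0.01 and a test against a 1.2-fold change. A fit without deleted replicate 1 and wild-type replicate 4 was chosen after seeing the data.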

Additional observations from a re-analysis of the deposited data

Results flagged for a closer look

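In each group of 4 libraries the highest and the lowest value were set against the group's range by Dixon's criterion. Of 112 groups 9 passed, and chance alone passes about 1 in 20. Among the 90 groups of single genes 5 passed, which is near that share, and the others were sums over lists. All groups come from the same libraries and are not independent. Wild-type replicate 3 stood above the other 3 wild-type libraries for Nlgn1, at 39.4 CPM against 30.2 to 31.0, for Adgrl3, at 94.3 CPM against 79.2 to 79.5, and for Flrt2, at 134 CPM against 110 to 114. The same library was high for the summed pan-neuronal markers, at 10814 CPM against 9161 to 9438, and for the summed scaffolds, at 3344 CPM against 3016 to 3054. It is also the deepest library, with 65523487 counts.

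Deleted replicate 1 was low for Cntn6, at 2.66 CPM against 4.06 to 4.19 in the other 3 Taf8-deleted libraries, and deleted replicate 4 was high for Cntnap2, at 129 CPM against 99.8 to 101. The summed choroid plexus markers stood apart in deleted replicate 1, at 1232 CPM against 15.6 to 206, and in wild-type replicate 4, at 416 CPM against 17.99 to 25.2.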

How the results depend on the processing

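Of the 30 called adhesion genes, 22 kept their direction and call under all 20 alternatives, 8 lost the call under at least 1 (Nrxn2, Adgrl3, Slitrk2, Cntnap2, Ncam1, Nectin1, Cadm1 and Cadm4), and 0 changed direction. The single-sample files held the same values as the matrix, so that alternative could change nothing. The threshold of 0.01 and the test against a 1.2-fold change keep the main fold changes, so they could not change a direction. Against a 1.2-fold change, 3 adhesion genes were higher and 19 lower, of all genes 2307 were higher and 2328 lower, of partners 1 and 10, and of scaffolds 0 and 10. With each library left out in turn, 5 to 6 adhesion genes were higher and 24 to 27 lower, and 1 to 3 partners and 1 to 2 scaffolds were higher. Without deleted replicate 1 and wild-type replicate 4, and at a threshold of 0.01, 1 partner was higher. With upper-quartile scaling, library size alone or a filter of 1 CPM in 4 libraries, 2 scaffolds were higher.

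Of the 14 genes that did not pass the threshold, 8 kept their sign in all 20 alternatives and 6 changed it near 0, and the cause was not tested. Among the 14, 5 gained a call as lower in at least 1 alternative, Ncam2 in 6, Flrt2 in 4, Nrxn3 and Cadm2 in 2 each and Flrt1 in 1. Leaving out single libraries gave log2 fold changes of -0.114 to 0.0057 for Lrrtm1, -0.0798 to 0.144 for Slitrk4, -0.0318 to 0.171 for Cntn3, -0.158 to 0.0829 for Cntnap1 and -0.0586 to 0.0408 for Nrcam. With library size alone Adgrl2 had 0.0066, Cntnap1 0.0273 and Nrcam 0.0303, with upper-quartile scaling Cntnap1 had 0.0156 and Nrcam 0.0176, and Cntnap1 had 0.058 with voom and 0.0593 without deleted replicate 1 and wild-type replicate 4. Scaling moved the median of all genes to between 0.0043 and 0.0521.

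Same-numbered libraries of the 2 groups did not deviate together (correlations of -0.28, 0.01, -0.07 and -0.46), so the numbers share only a label. With a replicate block, 5 adhesion genes were higher and 24 lower, and of all genes 4115 were higher and 4170 lower.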
